A study of Drosophila melanogaster with 6 samples.

Results

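Polycomb, Trithorax and chromatin remodeler genes encode the machinery that keeps genes silent or active through cell divisions. The 42 genes described here were chosen by name from the protein complexes they belong to, with earlier results of these data known. Each was searched for DamID-seq peaks of Ey and Su(H) within 1000 bp of its annotated span in dm6. They are 42 of the 18164 annotated genes used and comprise 19 Polycomb group genes, 10 Trithorax group genes and 13 genes of SWI/SNF and other ATP-dependent remodelers. The comparison asks at which of these genes either factor was found, and whether the 3 classes differ.

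DamID-seq marks the DNA that a protein visits by fusing it to the bacterial adenine methylase Dam, which methylates nearby GATC sites. The 3 groups expressed the methylase by itself (UAS-Dam) or fused to a factor (UAS-Ey-Dam and UAS-Su(H)-Dam) in larvae that all carried UAS-Dcr2, tubG80ts/CyO and SoxN-Gal4. Induction lasted 72 h at 29 °C, and the optic lobes of climbing larvae of the last instar were taken. Each of the 3 groups had 2 libraries, each made from a pool of dissected brains. SoxN-Gal4 drove all 3 transgenes, so methylation reports on the cells in which this driver was active, and all lists are relative to Dam alone rather than to untreated animals. Binding data hold no transcript levels, so the labelled cell type, medulla neuroblasts, could not be checked against marker genes. The pairing of fusion libraries with Dam-only libraries is not given in the sources used here, so the Ey and Su(H) lists may share their controls, and the values of the factors are given side by side as descriptions.

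Peaks were used from 6 deposited lists. The replicate lists held 1470 and 1509 peaks for Ey and 1455 and 1461 peaks for Su(H), each called at a false discovery rate under 0.01 with a peak score based on the log2 ratio of the fusion over Dam. The lists of reproducible peaks, which passed an irreproducible discovery rate (IDR) of 0.05 over both replicates, held 984 peaks for Ey and 972 for Su(H). Scores of Ey and Su(H) are not on a common scale, and for this reason each score is also given as the percentage of peaks of its own list with a lower score. A peak can be no finer than the GATC fragments it is built from, and the reads per fragment were not analysed here.

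Ey is a Pax6 homolog and one of the temporal transcription factors that medulla neuroblasts express in sequence. Su(H) is the DNA-binding protein through which Notch signaling acts on its target genes. Polycomb repressive complex 1 (PRC1) compacts chromatin and ubiquitylates histone H2A, and PRC2 methylates histone H3 at lysine 27. Trithorax group proteins oppose this repression, many of them as histone methyltransferases or as subunits of Mediator, and remodelers such as SWI/SNF slide or evict nucleosomes with energy from ATP.

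Reproducible peaks of either factor were found at 12 of the 42 genes (28.6%), where 7.67% of all genes carried such a peak. Reproducible Ey peaks lay at 7 genes, namely ph-p, ph-d, escl, trx, skd, osa and Mi-2 (16.7%, against 5.54% of all genes). Reproducible Su(H) peaks lay at 10 genes, namely Pc, ph-p, ph-d, calypso, kis, Trl, lid, skd, osa and Mi-2 (23.8%, against 5.46%). Peaks of both factors were present at 5 genes, ph-p, ph-d, skd, osa and Mi-2 (11.9%, against 3.33%). Ey alone was found at escl and trx (4.76%, against 2.21%), and Su(H) alone at Pc, calypso, kis, Trl and lid (11.9%, against 2.14%). These shares are descriptions of a list of chosen genes, and gene length, to which they are related, is taken up after the single genes.

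The textbook Su(H) site was written as 4 words, and CGTGGGAA, CGTGAGAA, TGTGGGAA and TGTGAGAA were searched on both strands of the reproducible peaks. The 7 matches are printed with 11 bases on each side, since they are the only matches to these 4 words in the peaks. Looser forms of the site were not searched, so a peak without a match may still hold a Su(H) site. Each is read 5′ to 3′ from Release 6 of the genome, with the word in capitals, and each stretch of 30 bases occurs once in the genome. The ph-p word lies in an intron of ph-p, under both an Ey and a Su(H) peak (chrX:2134882-2134911, plus strand). The first ph-d word lies 679 bp upstream of the nearest ph-d start site, also under a peak of each factor (chrX:2123947-2123976, minus strand). The second ph-d word lies in an intron under a Su(H) peak (chrX:2121988-2122017, plus strand). The osa word (chr3R:17709969-17709998, plus strand) and the trx word (chr3R:14284999-14285028, minus strand) lie in introns under Ey peaks. The first Mi-2 word lies in an intron of Mi-2 that also holds Su(Tpl), under an Ey peak (chr3L:19899051-19899080, minus strand). The second Mi-2 word lies upstream of Mi-2 in its neighbour Prp3, under a Su(H) peak (chr3L:19911026-19911055, minus strand).
ph-p: gagctcgagtgTGTGAGAAcccccgtaaaa
ph-d, upstream: tcgagtgccacTGTGGGAAcatatcactct
ph-d, intron: cgggacgaaaaTGTGAGAAgggaacgagag
osa: gtgtgtgtgtgTGTGGGAAagagctttgga
trx: gtgtgtttgtgTGTGGGAAactacgcgcca
Mi-2, intron: atttggaaattTGTGAGAAacattttggca
Mi-2, upstream: gtaggtgtcacCGTGGGAAtattaatggta

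Of these words, the one upstream of Mi-2 is the only one that begins with C. Taken over peaks, a word was held by 4 of the 13 reproducible peaks of Su(H) found at these genes (30.8%), close to the 32.2% of all 972 reproducible Su(H) peaks. Among the reproducible Ey peaks, 5 of 8 held one (62.5%), against 24.0% of all 984. Peak length was not matched in this comparison, and its part in the number was not tested. A word was held by 56.4% of genome windows as long as the ph-p Ey peak (8086 bp). The same share was 43.5% for windows as long as the osa peak (5454 bp) and 37.1% for the Mi-2 peak (4451 bp). In the shorter peaks the same share was 16.7% for windows of the length of the ph-d peak of both factors (1750 bp), 13.6% for trx (1402 bp), 8.94% for the Su(H) peak near Mi-2 (900 bp) and 7.88% for the intronic ph-d peak (787 bp). None of the 4 words stood in the peaks at Pc, escl, calypso, kis, Trl, lid and skd. A match is a run of letters, and whether the protein contacts it was not measured.

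The 2 polyhomeotic genes, ph-p and ph-d, had the highest scores of the 42 genes in 3 of the 4 replicate lists. They are neighbouring copies on the X chromosome and encode the SAM domain subunit through which PRC1 forms polymers. At ph-d (chrX, with its promoter peak at chrX:2123133-2124882), Ey-Dam scored 7.19 in replicate 1 and 5.42 in replicate 2, above 99.2% and 88.8% of the peaks of these lists. Su(H)-Dam scored 5.04 and 4.28 at the same place, above 99.7% and 97.3%. The Ey and Su(H) peaks here coincided over all 1750 bp, 91.2% of which lay outside the gene and the rest in its 5′ UTR, and they covered 1 of the 2 annotated start sites. A second, smaller Su(H) peak of ph-d (chrX:2121251-2122037) covered the other start site and scored 3.70 and 2.92. Thus Su(H) was found at each start site of ph-d, and Ey at the upstream one.

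At ph-p (chrX:2126210-2138371, minus strand), a single reproducible Ey peak stretched over 8086 bp (chrX:2133934-2142019). It covered all 3 start sites of ph-p and ran into the neighbouring gene D2hgdh. Ey-Dam scored 6.98 and 5.07 there (above 98.6% and 77.1% of the lists), and Su(H)-Dam scored 4.36 and 4.27 (above 97.4% and 97.3%) in a peak of 5934 bp that overlapped the Ey peak by 5916 bp. In replicate 1 this Ey region was 2 separate peaks. The one of 6.98 covered 2 of the 3 start sites, and the other, of 5.33, lay 482 bp upstream of ph-p and covered none. The Su(H) peak of replicate 2 also covered 2 of the 3 start sites. A separate Su(H) peak at the 3′ end of ph-p (chrX:2125292-2126775) scored 3.63 and 3.31. The IDR scores ranked ph-p low, with 964 for its Ey peak (above 6.81% of the reproducible Ey peaks) and 624 for its longer Su(H) peak (above 5.66%). At the ph-d promoter peak they were 1000 for Ey, the tied maximum, and 679 for Su(H) (above 28.3%). Since ph-p and ph-d are copies, their peaks were searched for shared sequence. Stretches of 50 bases were taken from every base onward, so that neighbouring ones overlap. Only 25 of those in the ph-d promoter peak (1.47%) recurred anywhere else on the 6 chromosome arms. All of them did so at the ph-p and ph-d locus, and no peak of the other genes held such a stretch.

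**Figure D1:**
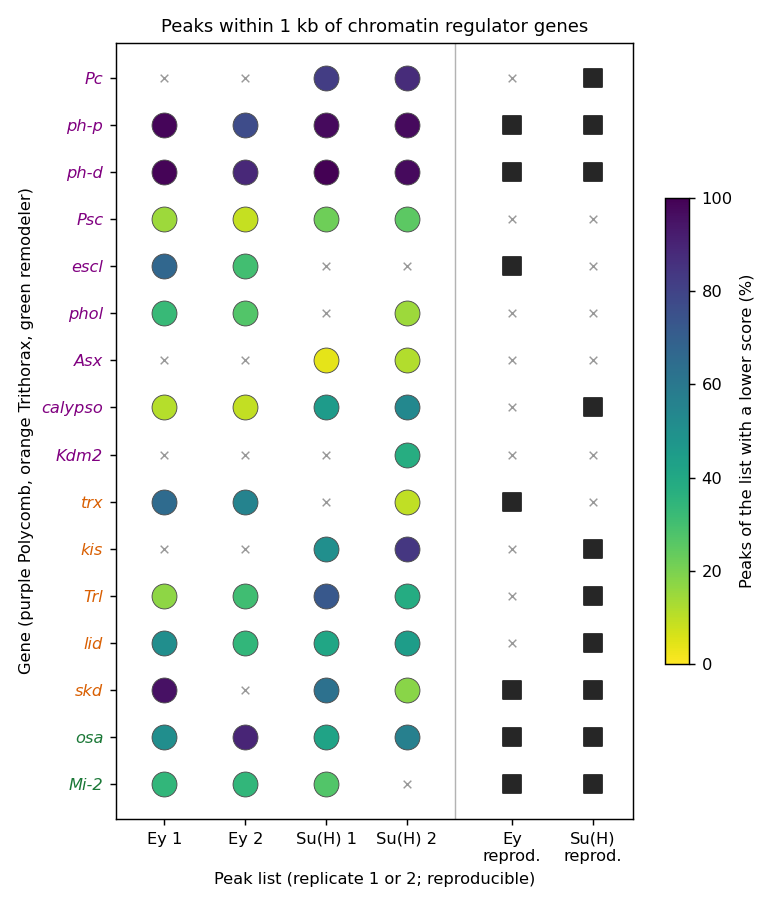
Each row is 1 of the 16 genes with a peak within 1 kb in any list, and each circle is its highest peak in a replicate list (Ey 1, Ey 2, Su(H) 1, Su(H) 2), coloured by the percentage of that list with a lower score. Squares mark a reproducible peak and crosses the absence of a peak. ph-p and ph-d are dark in all 4 replicate columns, whereas Psc and calypso have peaks in all 4 with low Ey scores.

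The other PRC1 genes differed from this pair. Pc encodes the chromodomain subunit that reads methylated lysine 27 of histone H3. It carried a Su(H) peak over its start site (chr3L:21317073-21318075) with scores of 3.80 and 3.75, above 82.3% and 87.5% of the lists, and no Ey peak in either replicate, the nearest reproducible one lying 20868 bp away. Psc, a RING finger subunit, had a peak of both factors in every replicate list, almost wholly within an intron and at least 8329 bp from a start site. The Psc scores were low, with 4.29 and 3.34 for Ey-Dam (above 14.6% and 8.75%) and 2.71 and 2.50 for Su(H)-Dam (above 21.9% and 25.1%), and no Psc peak was reproducible. Its paralog Su(z)2, the H2A ubiquitin ligase Sce and the SAM domain protein Scm had no peak in any list.

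In PRC2, 1 of the 6 genes had a peak in any list (16.7%, against 12.9% of all genes). This was escl, a paralog of the WD40 subunit gene esc, with a reproducible Ey peak (chr2L:11989539-11991231). Ey-Dam scored 5.51 and 3.92 (above 66.9% and 30.1% of the lists). The peak reached over the escl start site in replicate 1 and stopped 572 bp short of the gene in replicate 2, and 82.0% of the reproducible peak lay outside escl, over zuc and dgt2. Su(H) had no escl peak in either replicate. The methyltransferase gene E(z), as well as esc, Su(z)12, Pcl and Jarid2, had no peak in any list, and the nearest peak to E(z) was 37651 bp away.

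Among the smaller Polycomb complexes, calypso (caly in the annotation), the H2A deubiquitinase of PR-DUB, had a peak over its start site in all 4 replicate lists. Ey-Dam scored 4.21 and 3.35 (above 11.2% and 9.34%), and Su(H)-Dam scored 3.15 and 3.02 (above 45.4% and 53.5%). Only the Su(H) peak was reproducible (chr2R:16196315-16197946). It lay 98.8% outside calypso and also covered Lipt1, CG42837 and CG44242, so that it cannot be assigned to 1 gene. Asx, the cofactor of calypso, had Su(H) peaks over its 3 start sites in both replicates with scores of 2.32 and 2.23, among the lowest of their lists (above 3.99% and 11.6%), and these were not reproducible. The gene phol, which encodes a DNA-binding protein of PhoRC as pho does, had Ey peaks over its start site at 4.74 and 3.81. These lay 79.5% and 84.1% outside phol, also over CG3437 and CG3552. A Su(H) peak of 2.29 lay 593 bp from phol in replicate 2 only. Kdm2, the demethylase of dRAF, had 1 Su(H) peak inside the gene, of 2.75, in replicate 2 only. The phol paralog pho and its partner Sfmbt had none.

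Trithorax group genes carried reproducible peaks of either factor at 5 of 10 (50%, against 7.67% of all genes). The gene trx itself, a histone H3 lysine 4 methyltransferase, had an Ey peak in its first kilobases (chr3R:14283802-14285203), inside an intron and 1700 bp downstream of the start site. Ey-Dam scored 5.48 and 4.55 (above 65.4% and 55.3%), whereas Su(H) had a peak at this place in replicate 2 only, with a score of 2.19 (above 9.58%). The skd gene encodes Med13 of the Mediator kinase module, and both factors had a reproducible peak that covered a start site (chr3L:21024768-21027343 for Ey). Replicate 1 scored 6.60 for Ey-Dam and 3.43 for Su(H)-Dam (above 95.5% and 63.1%), but replicate 2 had no peak of either factor there at a false discovery rate under 0.01. A second region inside skd, where the Su(H) peaks lay 14730 bp from the nearest start site, held Su(H) peaks of 3.16 and 2.34 and an Ey peak of 4.35 in replicate 1, none of them reproducible.

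Su(H) without Ey among the reproducible peaks was the pattern of the remaining 3 Trithorax genes. At Trl, which encodes GAGA factor, both factors had peaks of the same 1043 bp in all 4 replicate lists (chr3L:14757982-14759023 for the reproducible Su(H) peak), 20 bp from a start site and inside an intron. The Trl scores were 4.35 and 3.93 for Ey-Dam (above 17.0% and 30.6%) and 3.61 and 2.77 for Su(H)-Dam (above 72.7% and 38.4%). At lid (Kdm5 in the annotation), a histone H3 lysine 4 demethylase, Ey-Dam scored 5.16 and 4.02 and Su(H)-Dam 3.07 and 2.89 at the 5′ end of the gene (chr2L:5997097-5999343). The Su(H) peak of lid had the highest IDR score of that list, 716, shared with 21 peaks in all, although its replicate scores were above only 41.0% and 44.6% of their lists. The CHD-family ATPase gene kis had a Su(H) peak of 3.24 and 3.63 (above 50.4% and 84.1%) that lay 807 bp upstream of kis, over Rpp30, and no Ey peak. The methyltransferase genes trr and ash1, the shared subunit gene ash2, the demethylase gene Utx and the Med12 gene kto had no peak in any list.

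Of the 13 remodeler genes, osa and Mi-2 had a peak in any of the 6 lists (15.4%, against 12.9% of all genes), and 11 had none. osa encodes the subunit that defines the BAP form of SWI/SNF. An intronic peak of osa (chr3R:17702960-17705791 for Ey) scored 5.16 and 5.46 for Ey-Dam (above 51.0% and 89.7%) and 3.09 and 3.07 for Su(H)-Dam (above 42.1% and 56.7%). It was the only one of 11 genes whose Ey score was higher in replicate 2, and it lay 12559 bp from the start site. A second reproducible Ey peak of osa (5454 bp long) was in the replicate 1 list only, at 4.80, and the second Su(H) peak (chr3R:17710862-17711511) was in neither replicate list.

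Mi-2, the ATPase of the NuRD complex, had a reproducible Ey peak in an intron that also holds Su(Tpl), (chr3L:19895320-19899770), with scores of 4.78 and 4.03 (above 34.1% and 34.3%). Su(H)-Dam scored 2.79 there in replicate 1 and had no peak in replicate 2. The reproducible Su(H) peak counted for Mi-2 was a different one, 567 bp upstream over Prp3 (chr3L:19910782-19911681), and was in neither replicate list at a false discovery rate under 0.01. Both factors were thus near Mi-2 without sharing a reproducible peak. All other SWI/SNF genes, namely the ATPase gene brm, the subunit genes mor, Snr1, Bap55, Bap60 and Bap111 and the PBAP subunit genes Bap170, polybromo and e(y)3, had no peak, nor had the remodeler ATPase genes Iswi and dom.

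**Figure D2:**
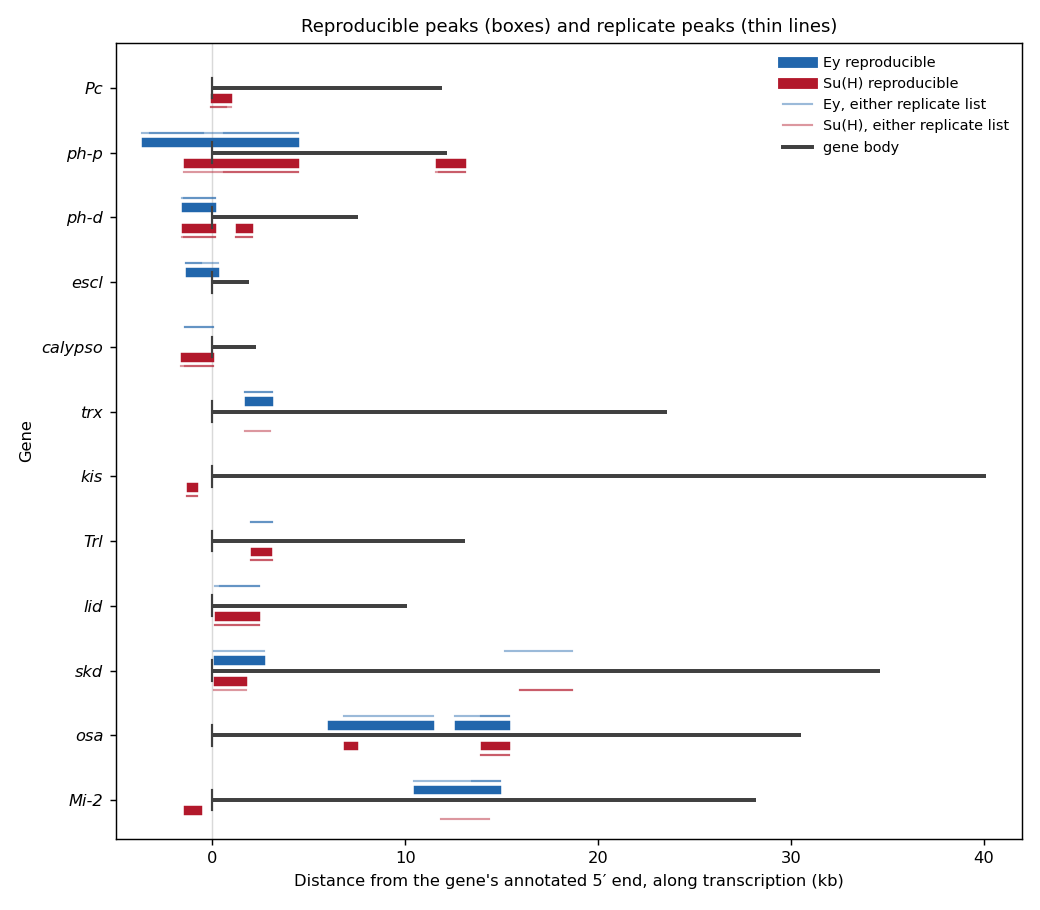
The 12 genes with a reproducible peak are drawn to scale from their annotated 5′ end along transcription, in kb, with Ey above and Su(H) below the gene body, boxes for reproducible peaks and thin lines for peaks of either replicate list. Peaks gather at the 5′ end in ph-p, ph-d, Pc, lid and skd, lie deep in introns of osa and Mi-2, and lie upstream of kis.

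Peaks over start sites were common in this list. A start site of the gene itself was covered by 4 of the 8 reproducible Ey peaks, at ph-p, ph-d, escl and skd. The same held for 7 of the 13 reproducible Su(H) peaks, at Pc, ph-p, ph-d (both of its peaks), calypso, lid and skd. Over all reproducible peaks, 24.1% of Ey peaks and 22.7% of Su(H) peaks covered a start site of a protein-coding gene, but those peaks were not chosen for lying near a gene. Overlap between the factors was seen for 5 of the 8 Ey peaks (62.5%, 95% Wilson interval 30.6 to 86.3%, counting error only), against 61.0% of all 984 Ey peaks. The interval takes the 8 peaks as independent, although some share a gene and the genes were chosen by name. It measures no spread between replicates. From the side of Su(H), 5 of 13 peaks did so (38.5%), against 62.9% of all 972.

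The word GAGAG, which GAGA factor binds, varied widely between peaks at these genes. Counted on both strands, with overlapping copies counted separately, it occurred 4.04 times per kb in the Ey peaks and 4.0 times per kb in the Su(H) peaks of the 12 genes. All reproducible peaks had 2.15 and 2.17 per kb, and the genome 1.57 per kb. The densest was skd, whose Ey peak held 27 copies, a number reached by 0.139% of genome windows of that length. Mi-2 held 28 in its Ey peak (0.542% of windows), lid 12 (2.71%), ph-d 10 in its promoter peak (2.83%), ph-p 29 in its Ey peak (2.88%) and Trl 6 (3.99%). Lower densities were found at calypso (1.23 per kb), at escl (1.77 per kb) and in 3 of the 4 osa peaks (1.06, 1.38 and 1.65 per kb), near or below the genome. The Su(H) peaks at Pc, kis and Mi-2 and the 650 bp Su(H) peak of osa held none. Most of the copies behind the pooled rates stood in peaks at skd, Mi-2, ph-p, ph-d, lid and Trl. GCCAT, the core of the word that Pho binds, was at 1.52 per kb in Ey peaks and 1.67 per kb in Su(H) peaks of these genes. All reproducible peaks had 2.19 and 2.17 per kb, and the genome 2.36 per kb. In the 250 bases before the annotated gene start, GAGAG stood at 8 of the 42 genes (19.0%, against 25.2% of all genes), GCCAT at 15 (35.7%, against 35.8%) and a Su(H) word at Utx alone (2.38%, against 2.68%).

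**Figure D3:**
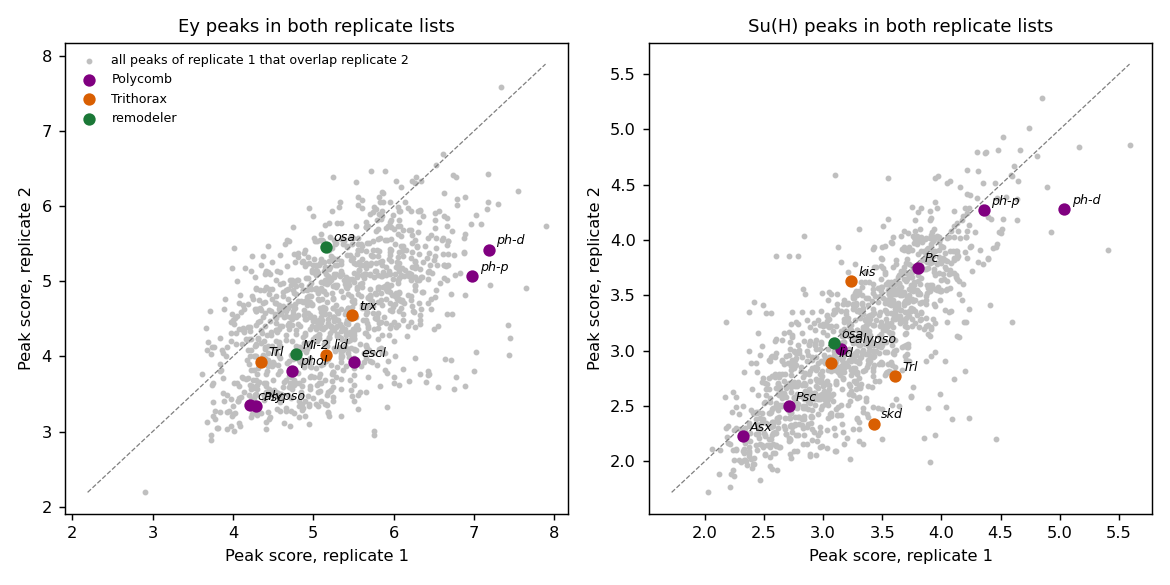
Peak scores of replicate 1 (horizontal axis) and replicate 2 (vertical axis) for Ey and Su(H). Grey points are all peaks of replicate 1 that overlap one of replicate 2, coloured points are the genes' highest peak in each replicate (for skd these are different peaks), and the dashed line marks equal scores. Of 11 genes per factor, 10 lie below the line.

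Most scores at these genes were higher in replicate 1. Of 11 genes with an Ey peak in both replicate lists, 10 scored higher in replicate 1, with a median difference of 0.93, and for Su(H) 10 of 11 did so, with a median difference of 0.13. Replicate 1 was higher over all overlapping peaks as well, by a median of 0.66 for Ey and 0.20 for Su(H), a smaller shift than at these genes for Ey and a larger one for Su(H). A peak of Ey in both replicate lists was found at 11 genes (26.2%, against 6.30% of all genes), and one of Su(H) at 11 (26.2%, against 6.80%). Peaks in all 4 replicate lists stood at 7 genes, ph-p, ph-d, Psc, calypso, Trl, lid and osa (16.7%, against 4.45%). A peak in any of the 6 lists stood at 16 genes (38.1%, against 12.9%).

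The 2 ways of counting did not pick the same genes. Psc, phol, calypso, Trl and lid had an Ey peak in both replicate lists but no reproducible one (5 genes, 11.9%, against 1.75% of all genes), and Psc and Asx the same for Su(H) (2 genes, 4.76%, against 2.28%). The replicate scores do not separate these genes from the others, since lid (5.16 and 4.02) was not reproducible and Mi-2 (4.78 and 4.03) was. In the other direction, 2 of the 8 reproducible Ey peaks, at osa and skd, were found in 1 replicate list only. Of the 13 reproducible Su(H) peaks, that of skd was found in 1 replicate list and those at osa and Mi-2 noted above in none. The share found in both was 75.0% for Ey and 76.9% for Su(H), against 83.8% and 81.0% of all reproducible peaks.

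By class, the Trithorax group had a reproducible peak of either factor at 5 of 10 genes (50%), the Polycomb group at 5 of 19 (26.3%) and the remodelers at 2 of 13 (15.4%), against 7.67% of all genes. With 10 to 19 genes per class, 1 gene moves a share by several points, and the order of the classes was not tested. The Trithorax count includes the CHD-family ATPase gene kis, whose only reproducible peak lay 807 bp upstream. Counting kis with the remodelers was not tried. With SWI/SNF counted as Trithorax, that group held 6 of 20, close to the Polycomb share of 5 of 19. Among reproducible peaks above their list's median of the mean replicate score the order turned, with 3 Polycomb genes of 19 and 1 Trithorax gene of 10, against 4.10% of all genes. Ey peaks stood at 3 Polycomb, 2 Trithorax and 2 remodeler genes (5.54% of all genes), and Su(H) peaks at 4, 4 and 2 (5.46% of all genes). Counting a peak in any list brought the Polycomb group to 9 of 19 (47.4%, against 12.9% of all genes) and left the Trithorax group at 5 and the remodelers at 2, because Psc, phol, Asx and Kdm2 are all Polycomb genes. Within the Polycomb group, PRC1 had 3 of 7 genes with a reproducible peak of either factor and PRC2 1 of 6, and SWI/SNF had 1 of 10, all to be read against the same 7.67%.

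Gene length moved with these shares. The 12 genes with a reproducible peak had a median length of 12642 bp and the other 30 a median of 5570 bp. A longer gene has more places for a peak, and among protein-coding genes, of which 7.59% carried a reproducible peak, the share rose from 4.57% of genes up to 5 kb to 9.83% at 5 to 10 kb, 16.6% at 10 to 20 kb and 26.9% above 20 kb. The 42 genes in the same bins had 2 of 15, 1 of 12, 4 of 10 and 5 of 5. All 5 genes above 20 kb, namely kis, skd, osa, Mi-2 and trx, thus had a reproducible peak, and below 10 kb only ph-d, escl and calypso had one. Median lengths were 9370 bp in the Trithorax group, 7137 bp in the Polycomb group and 5293 bp in the remodelers, the same order as the shares of genes with a peak, and how much of the difference between classes goes with length was not tested.

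**Figure D4:**
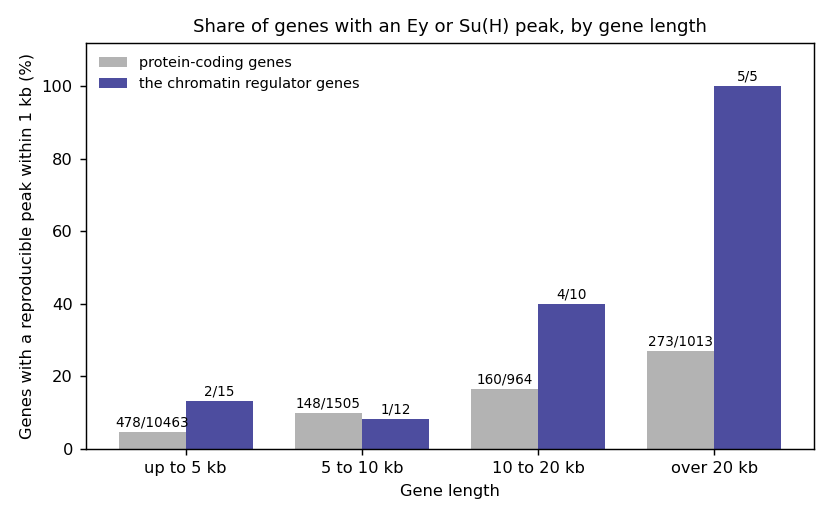
Bars show the percentage of genes with a reproducible Ey or Su(H) peak within 1 kb, by gene length, for all protein-coding genes (grey) and the 42 genes (blue), with the number of genes with a peak over the number in the bin. All 5 of the 42 genes above 20 kb had a peak, against 26.9% of protein-coding genes of that length.

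Of the 30 genes without a reproducible peak, 4 had one beyond 1000 bp but within 5000 bp (13.3%, against 6.61% of all genes without a reproducible peak). These were Psc at 1443 bp, Kdm2 at 2668 bp, Su(z)2 at 2680 bp and Iswi at 3294 bp, in each case a peak of Ey. The 26 genes without a peak in any list were on median 18743 bp from the nearest peak of any list, from 1595 bp at Scm to 160550 bp at Utx. Within 1000 bp of each of these 26 genes there were 10 to 80 GATC sites, against 13 to 115 at the 12 genes with a reproducible peak, and the part of this difference in the missing peaks was not tested.

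The 46 other chromatin genes that were looked up as partners of these complexes had reproducible peaks at 7 (15.2%), against 28.6% of the 42 genes and 7.67% of all genes. Their median length was 3634 bp, against 7772 bp for the 42 genes, and how much of the difference goes with length was not tested. Both factors were found at psq and simj, and next to pont at 48 bp from the gene, in a peak over Nuak. psq encodes a protein that binds Polycomb response elements, simj a subunit of NuRD and pont an ATPase of the Tip60 and INO80 complexes. At psq, Ey-Dam scored 5.66 and 3.98 and Su(H)-Dam 3.45 and 3.00 over 2 start sites. Of the reproducible peaks, those of Su(H) alone were found at grh (4.93 and 4.07, in an intron), which is itself a temporal factor of other neuroblasts, and at Dpy-30L1 and Ptip, both of histone methyltransferase complexes. The Dpy-30L1 peak lay 83.6% outside that gene and also over EMC3, and the Ptip peak lay 97% outside Ptip and also over endos. Ey alone was found at nej, the CBP acetyltransferase gene, with 5.16 and 4.20 over a start site. The partners of PRC1 and PRC2 (4 genes) and the remaining Mediator kinase module genes Cdk8 and CycC had no peak.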

How the data were processed

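DamID-seq reads were aligned to dm6 with Bowtie2 and turned by the authors into log2 ratios over Dam alone with damidseq_pipeline, after which find_peaks called peaks per replicate. The deposited score in each list is the authors' peak score in the replicate lists (false discovery rate under 0.01) and the IDR score in the reproducible lists (peaks called at a rate under 0.1, IDR threshold 0.05). IDR scores tie at 1000 for 822 of the 984 Ey peaks, so they were not used to order Ey peaks. Deposited lists of overlapping peaks were not used. Reads and read depth were not analysed here, and the precision is limited by 2 libraries per group and by the GATC fragments.

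Ensembl release 115 gave the genes of 6 chromosome arms, of which 23973 became 18164 once transposon insertions were set aside. All 42 genes were matched, calypso as caly and lid as Kdm5. All 7851 peaks begin and end at a GATC site of Release 6. A gene counted when a peak lay within 1000 bp, and peaks overlapped when they shared at least 1 bp. No test was run, and counts of genes with a peak are to be read against the percentage of all genes given for the same rule. Every one of the 42 genes is named, those with reproducible peaks with their values. The members and lists were chosen with earlier results of these data known. Sequences are RefSeq's Release 6 genome, printed as stretches of 30 bases around each Su(H) word under a reproducible peak. Counting was tested on simulated data. The tools were pandas 2.3.3, numpy 2.4.6, matplotlib 3.10.9 and scipy 1.17.1 under Python 3.11.15.

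The alternatives were distances of 0 and 5000 bp, the list of 1 replicate alone, a peak in both replicate lists, reproducible peaks found in both replicate lists, the reproducible peaks above their list's median of the mean replicate score, the nearest gene only, an overlap of 50% of the shorter peak, and SWI/SNF counted with the Trithorax group.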

Additional observations from a re-analysis of the deposited data

How the results depend on the processing

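Reproducible Ey peaks at 7 of the 42 genes became 11 at a distance of 5000 bp, 11 when a peak in both replicate lists was asked for (6 of the 7 genes among them) and 3 among the peaks above the list median of the mean replicate score, and ranged from 11 to 12 with the list of 1 replicate alone. Genes with Su(H) peaks went from 10 to 4 above that median and ranged from 12 to 14 with 1 replicate. Genes with both factors went from 5 to 3 among reproducible peaks found in both replicate lists and to 2 above the median, and numbered 9 with either replicate alone. Polycomb genes with a peak of either factor went from 5 to 8 at 5000 bp and in both replicate lists and to 3 above the median, and ranged from 8 to 9 with 1 replicate. Above the median, Trithorax genes fell to 1 (kis), remodelers to 1 (osa) and the other chromatin genes to 4, and with SWI/SNF counted as Trithorax the remodelers held 1 of 3 and the Trithorax group 6 of 20. A distance of 0 bp took away Mi-2 and kis for Su(H) and changed no Ey gene, and the nearest gene only did the same. The share of all genes fell for Ey from 5.54% to 4.17% at 0 bp and 4.48% with the nearest gene only. For Su(H) it fell from 5.46% to 4.05% and 4.35%. The Trithorax share was above the Polycomb share in the main count (5 of 10 against 5 of 19) and with a peak in both replicate lists (5 of 10 against 8 of 19). With SWI/SNF counted as Trithorax it was only slightly above (6 of 20 against 5 of 19). Above the median it was below the Polycomb share (1 of 10 against 3 of 19). The overlap of Ey with Su(H) peaks stayed at 62.5% with an overlap of 50%, was 41.7% at 5000 bp and ranged from 73.3 to 81.8% with 1 replicate. No paired analysis was possible because the lists hold peaks and no test between samples was run. The share of all genes moved with these settings too: for Ey from 5.54% to 9.94% at 5000 bp, 6.30% in both replicate lists, 2.90% above the median and 7.94 to 8.03% with 1 replicate; for Su(H) from 5.46% to 2.68% above the median and 7.76 to 8.23% with 1 replicate. For both factors it went from 3.33% to 2.86% among reproducible peaks found in both replicate lists, 1.48% above the median and 5.29 to 5.62% with 1 replicate. For either factor it went from 7.67% to 13.8% at 5000 bp, 8.65% in both replicate lists, 4.10% above the median and 10.5% with 1 replicate.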
